A study of Mus musculus with 4 samples.

Results

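Pericytes wrap around capillary endothelial cells and share their basement membrane. They are held there by PDGF-B signaling through *Pdgfrb*, and they regulate vessel tone through channels and nitric oxide-sensitive guanylate cyclase. In the lung they are commonly recognized by *Higd1b*, a hypoxia-inducible domain family gene, by *Cox4i2*, the alternative isoform of a cytochrome c oxidase subunit, and by *Ndufa4l2*, a hypoxia-responsive relative of the respiratory chain gene *Ndufa4*. Vascular smooth muscle cells, the other mural cells, are instead rich in contractile proteins such as *Acta2*, *Myh11* and *Cnn1*.

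The cells described here were taken from single-cell libraries by a rule on their own UMIs (counts of single RNA molecules). A cell had to hold at least 1 UMI of 2 of the 3 genes *Higd1b*, *Cox4i2* and *Ndufa4l2*, at least 1 UMI of *Pdgfrb* and at most 1 UMI of *Clstn2*, which encodes a calsyntenin. It had to lack UMIs of *Ptprc* (immune cells), *Cdh5* (endothelial cells) and *Epcam* (epithelial cells). The rule found 973 cells of the 30860 cells that passed the limits on genes and mitochondrial UMIs, and they are called gated cells below. The same rule with *Clstn2* at 2 or more UMIs found 281 cells, called Clstn2-high cells. A smooth muscle gate (*Myh11*, *Cnn1* and at least 5 UMIs of *Acta2*) held 6007 other cells.

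The lungs came from young adult mice of both sexes, 14 days after 0.8 U/kg bleomycin was given into the trachea, and all mice had been injured. The comparison was between 2 WT mice and 2 *Tubb3*-/- mice, whose *Tubb3* alleles both carry *Cre* in frame at the translation start, so that the knockout libraries also carry a *Cre* gene. From each mouse, a whole-cell library (red cells removed, live cells sorted) and a mural cell-enriched library were made. For the latter, CD31, CD45, EpCAM and TER-119 positive cells were depleted, and MCAM+ PDGFRα- cells and MCAM- cells were sorted and mixed in equal numbers. The 4 mice were tagged and captured together in each of the 2 pools, so each mouse gave 1 sample per pool and the replicate is the mouse.

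Of the gated cells, 892 came from the mural cell-enriched pool and 81 from the whole-cell pool. The WT mice gave 190 and 148 gated cells and the *Tubb3*-/- mice 346 and 289. Their median UMIs per cell were 10897.5 and 9439 in WT and 13233.5 and 12385 in *Tubb3*-/- mice, so the knockout libraries were deeper, as they also were in the smooth muscle gate (12010.5 and 11832 against 15558 and 14288). No barcode was shared by mice of a pool, and 3 gated cells had a barcode that also occurred in the other pool. A doublet caller marked 38 gated cells (4.26%) of the mural cell-enriched pool and 0 of the whole-cell pool, at a threshold of 0.213. For both pools this was the automatic threshold of the mural cell-enriched pool, since the automatic threshold of the whole-cell pool marked 2 of 14160 cells and so had not worked.

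The gated cells did not match the name of classical pericytes. Most of them, 592 cells (60.8%), met the rule with *Cox4i2* and *Ndufa4l2* and without any UMI of *Higd1b*, while 326 cells (33.5%) held all 3 markers. In addition, 661 cells (67.9%) also met the UMI thresholds of the smooth muscle gate, and 236 cells (24.3%) held UMIs of both *Pdgfra* and *Col1a2*, which mark fibroblasts. Only 19 cells lacked UMIs of both *Myh11* and *Pdgfra*. Because *Acta2* and *Myh11* were nearly as high as in the smooth muscle gate, the cells are named here by the gate and not by a cell type. Free RNA in droplets gives single UMIs, and the part of it in these markers was not tested. After each cell was thinned to 5000 UMIs, which left out 38 shallower cells, *Higd1b* was found in 27.9% of gated cells (39.2% before thinning). The same thinned share was 90.9% in Clstn2-high cells, 0.312% in the smooth muscle gate and 0.648% in the immune gate, whose cells should lack the gene. Median UMIs per cell were 11935, 8116, 13261 and 8537.5 in these gates.

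Levels are given as CPM, the UMIs of a gene scaled to a fixed total of all UMIs summed over the cells of a mouse, as the mean ± SD over 4 mice. The rule used the markers, so their levels and every comparison between gates are descriptions with no test. *Higd1b* was 103 and 170 CPM in the gated cells of the WT mice and 137 and 114 CPM in those of the *Tubb3*-/- mice (131 ± 29.8). The genotypes overlapped, and the level stood between 982 ± 222 CPM in Clstn2-high cells and 0.637 ± 0.101 CPM in the smooth muscle gate. *Cox4i2* was 287 and 480 CPM in WT and 313 and 305 CPM in *Tubb3*-/- gated cells, against a mean of 2099 CPM in Clstn2-high and 24.8 CPM in smooth muscle gate cells. *Ndufa4l2* was the most even marker among the mice, at 393 and 402 CPM in WT and 380 and 390 CPM in *Tubb3*-/- mice. It had means of 1017 CPM in Clstn2-high and 13.9 CPM in smooth muscle gate cells. *Pdgfrb*, the PDGF receptor, was 356 ± 50.5 CPM in gated cells, 1011 ± 196 CPM in Clstn2-high cells and 99.2 ± 10.2 CPM in the smooth muscle gate. *Higd1b* (chr11:102835849-102838040, plus strand, mm10) and *Cox4i2* (chr2:152754173-152765037, plus strand) overlap no other annotated gene. *Ndufa4l2* (chr10:127514967-127517154, plus strand) overlaps *Shmt2* on the other strand.

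**Figure D1:**
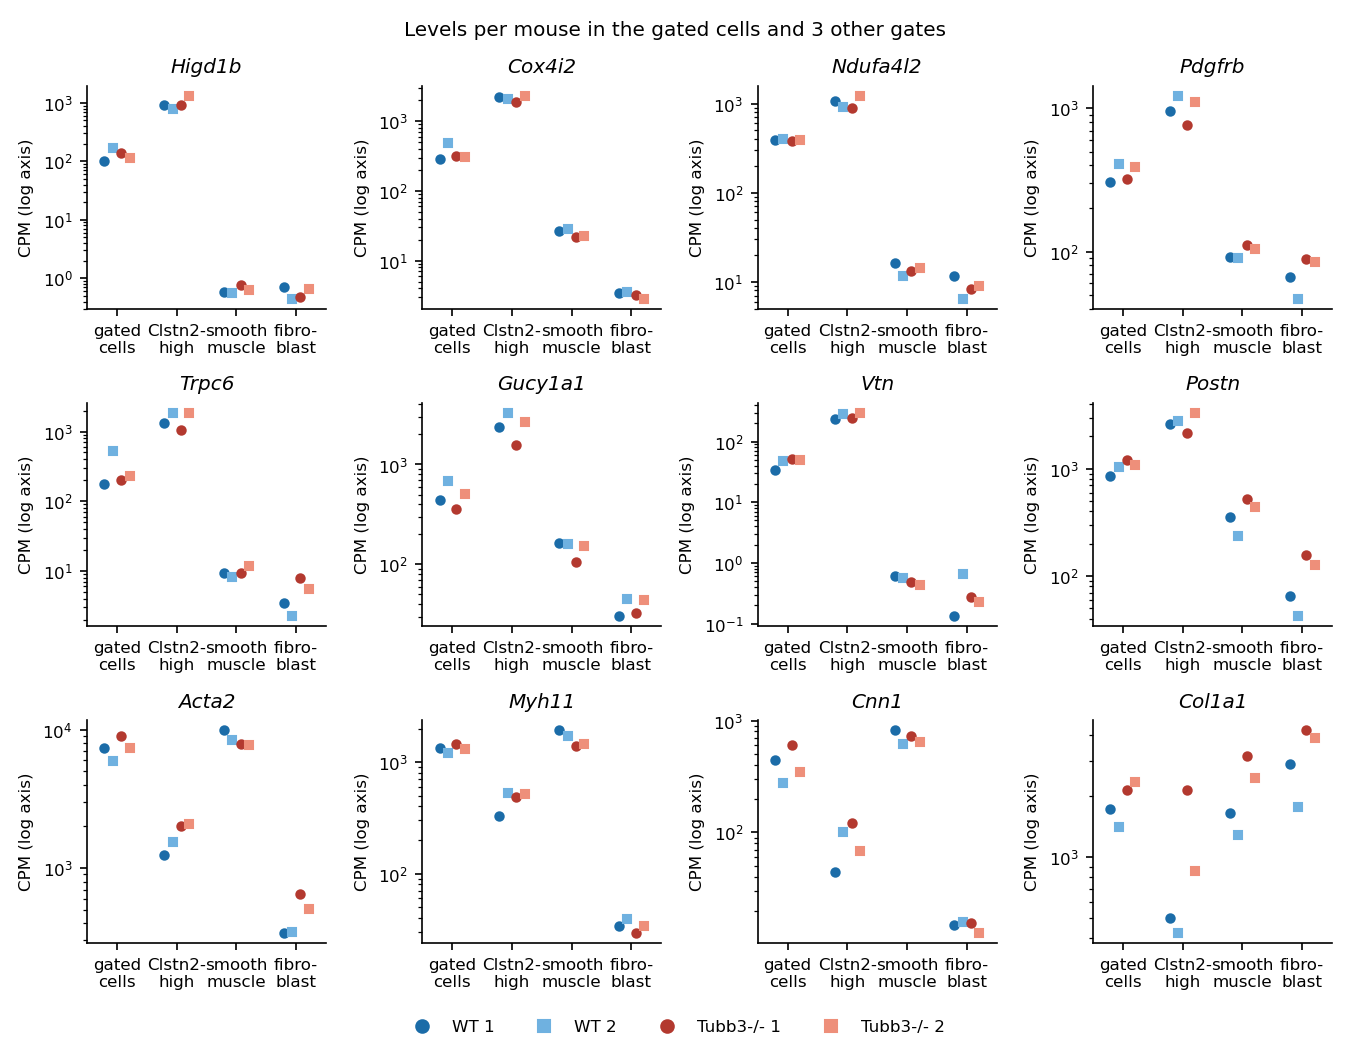
CPM on a log axis of 12 genes in the gated cells and in the Clstn2-high, smooth muscle and fibroblast gates, 1 point per mouse. The markers and *Trpc6*, *Gucy1a1*, *Vtn* and *Postn* stand between the Clstn2-high and smooth muscle gates, whereas *Acta2* (7446 CPM on average in gated cells) is near the smooth muscle gate (8488 CPM).

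Genes of pericyte identity that the rule did not read followed the markers. *Trpc6*, a receptor-operated cation channel, was 174 and 520 CPM in WT and 203 and 227 CPM in the *Tubb3*-/- mice. WT replicate 2 was the high one, and all 4 mice lay far above the smooth muscle gate (9.57 ± 1.47 CPM) and below Clstn2-high cells (1508 ± 388 CPM). *Gucy1a1*, a subunit of soluble guanylate cyclase, averaged 497 ± 141 CPM against 2457 CPM in Clstn2-high and 145 CPM in smooth muscle gate cells. *Vtn*, which encodes vitronectin, averaged 46.0 ± 7.95 CPM against 265 and 0.522 CPM. *Postn*, which encodes the matricellular protein periostin, averaged 1050 ± 150 CPM, against 2711 and 387 CPM. Of 23 pericyte identity genes with at least 20 CPM in either gate, 11 were at least 2-fold above the smooth muscle gate and 0 were 2-fold below it. Over all 6924 genes at that level, 2.22% were 2-fold above and 1.85% below. Against Clstn2-high cells, 14 of 23 were at least 2-fold lower and 0 higher, where 8.65% of 7368 genes were lower and 8.12% higher.

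The contractile genes were instead near the smooth muscle gate and above Clstn2-high cells. *Acta2*, smooth muscle actin, was 7399 and 5970 CPM in WT and 8997 and 7418 CPM in the *Tubb3*-/- mice. This was close to the smooth muscle gate (8488 ± 1002 CPM) and above Clstn2-high cells (1719 ± 390 CPM) in each mouse. *Myh11*, smooth muscle myosin heavy chain, averaged 1323 ± 98.7 CPM against 1629 CPM in the smooth muscle gate and 463 CPM in Clstn2-high cells, and *Cnn1*, calponin, averaged 418 ± 140 CPM against 705 and 84.2 CPM. Of 16 contractile genes at 20 CPM or more, 12 were at least 2-fold above Clstn2-high cells and 0 below. Over all genes at that level, 8.12% were above and 8.65% below. The rule of the smooth muscle gate read 3 of these contractile genes. Against that gate, 0 of the 16 were 2-fold above, 1 was below, and the median log2 ratio was -0.17. Fibroblast markers were also near the smooth muscle gate (median log2 ratio -0.14, with 0 of 17 genes 2-fold above). Their summed level was 11812 to 14605 CPM in gated cells and 13012 to 16377 CPM in the smooth muscle gate, with 25522 to 28186 CPM in the fibroblast gate. Summed endothelial markers were 109 to 154 CPM and summed immune markers 124 to 188 CPM in gated cells, and no gene of either list was at 0 over the 4 mice.

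Notch signaling maintains mural cells, and *Notch3*, its main receptor there, was even among the mice (446 and 497 CPM in WT, 450 and 466 CPM in *Tubb3*-/-). Its mean of 465 ± 23.0 CPM lay between 740 CPM in Clstn2-high cells and 133 CPM in the smooth muscle gate. Among the mitochondrial isoforms, *Ndufa4* averaged 314 ± 32.6 CPM, with 106 CPM in Clstn2-high cells and 456 CPM in the smooth muscle gate. This was the reverse of its relative *Ndufa4l2*. *Cox4i1*, the common isoform beside *Cox4i2*, differed less, at 746 ± 48.9, 571 ± 107 and 786 ± 16.5 CPM. The hypoxia-inducible factor gene *Epas1* averaged 486 ± 75.4 CPM, against 630 and 137 CPM.

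Genes with the largest ratio to all other cells were chosen by the log2 ratio with a pseudocount of 1 CPM, outside the rule genes. They were led by *Adora1*, the adenosine A1 receptor (32.9 ± 4.91 CPM, log2 ratio 4.30), *Trarg1*, a regulator of glucose transporter trafficking (39.2 ± 5.28 CPM, 3.97), *Trpc6* and *Vtn*. *Col8a1*, which encodes a short-chain collagen (468 ± 147 CPM), *Rgs5*, a regulator of G protein signaling, *Cdh2*, which encodes N-cadherin (60.0 ± 9.52 CPM), and *Pgf*, placental growth factor (119 ± 20.4 CPM), were also among the first 20 genes. Unlike for *Trpc6* and *Vtn*, Clstn2-high cells had about as much *Col8a1* (432 ± 96.7 CPM), with 56.6 CPM in the smooth muscle gate. All 20 genes were higher than the other cells in 4 of 4 mice. *Ccl19*, a chemokine, was among them (219 ± 47.5 CPM), but its annotation holds near-identical copies and its count is uncertain.

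A group of genes was high in gated cells and low in Clstn2-high cells. *Hpse2*, a heparanase relative, was 302 ± 37.2 CPM against 11.4 ± 6.06 CPM, *Ntrk3*, the receptor of neurotrophin-3, was 218 ± 25.7 against 21.8 ± 7.27 CPM, and *Ntf3*, its ligand, was 54.5 ± 4.35 against 6.82 ± 4.84 CPM. Ligand and receptor were thus both higher in the gated cells than in Clstn2-high cells, in 4 of 4 mice. Neither they nor *Hpse2* was among the genes with the largest ratios over the smooth muscle gate. *Kcnq5*, a potassium channel gene, was much lower in gated cells (213 ± 127 CPM against 5876 ± 2021 CPM), as was *Adcy8*, an adenylyl cyclase gene (11.2 ± 10.9 against 841 ± 412 CPM), along with *St6galnac3*, *Cadm1* and *Fam162b*. Against the smooth muscle gate, *Gja4*, which encodes connexin 37 (58.2 ± 16.1 against 4.88 ± 0.891 CPM), was among the higher genes. The mesothelial genes *Msln* and *Upk3b* and the receptor gene *Erbb4* (9.57 ± 5.40 against 56.4 ± 12.6 CPM) were among the lower ones.

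The gated cells were not uniform. They were divided by their own *Higd1b* UMIs into cells with 0 (592 cells), 1 to 2 (192), 3 to 9 (141) and 10 or more UMIs (48), whose median UMIs per cell were 12676.5, 10625.5, 10639 and 12009. Mean *Cox4i2* was 154, 307, 844 and 1655 CPM through these classes, and *Ndufa4l2* went from 245 to 1217 CPM. Genes that the rule did not read had the same order. *Trpc6* went from 103 to 934 CPM, *Gucy1a1* from 293 to 1292 CPM and *Vtn* from 12.5 to 171 CPM. The reverse order was seen for *Cnn1*, which went from 527 to 42.0 CPM, and for *Actc1*, cardiac actin, which went from 1360 to 58.5 CPM. *Acta2* differed less, with 8219 CPM in cells without *Higd1b* and 5628 CPM in those with most. *Ndufa4* went from 376 to 123 CPM, while *Cox4i1* stayed between 685 and 768 CPM. The class with most *Higd1b* held only 4 and 6 cells of the WT mice and 25 and 13 of the *Tubb3*-/- mice.

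**Figure D2:**
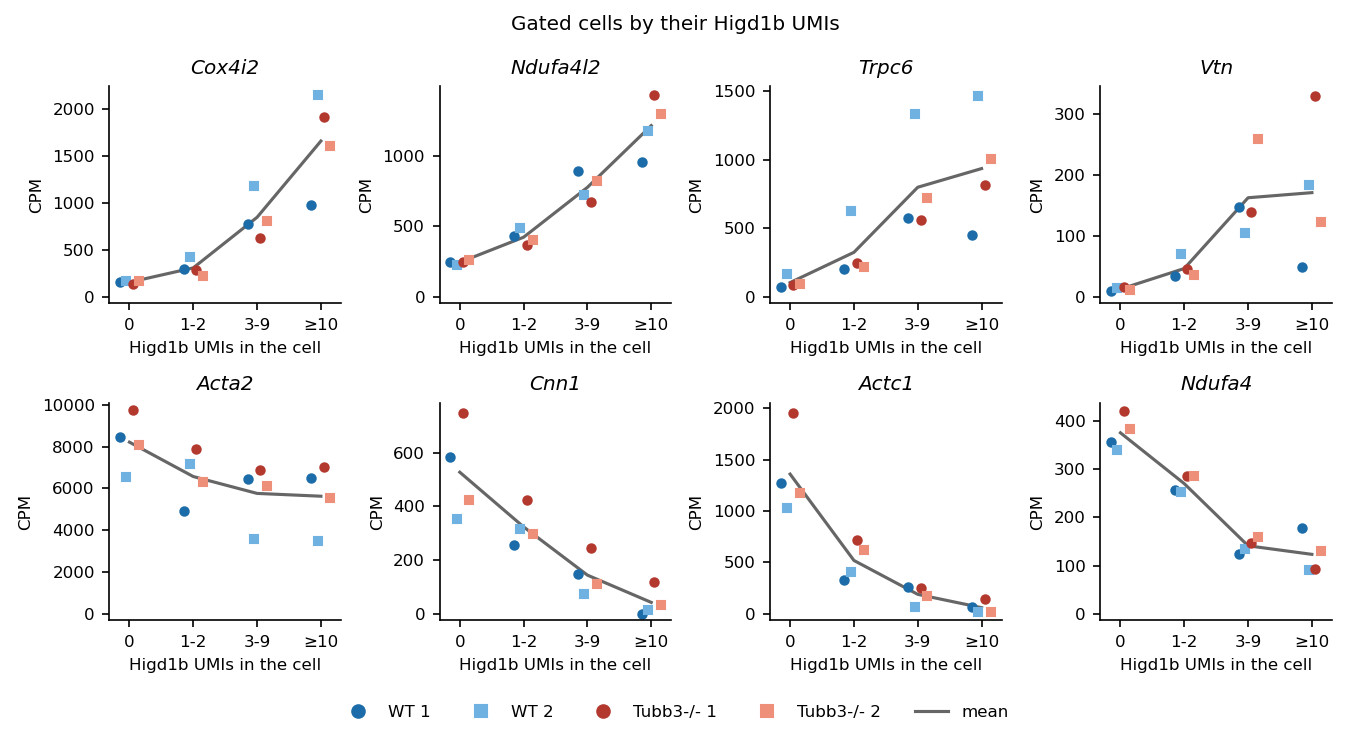
CPM of 8 genes in gated cells divided by their *Higd1b* UMIs, with 1 point per mouse and a line through the mean of the 4 mice. *Cox4i2*, *Ndufa4l2*, *Trpc6* and *Vtn* increase with *Higd1b* and *Cnn1*, *Actc1* and *Ndufa4* decrease, while *Acta2* falls from 8219 to 5628 CPM.

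A second division was by *Pdgfra*, the fibroblast PDGF receptor. The 122 gated cells with 2 or more *Pdgfra* UMIs had a median of 26143.5 UMIs per cell, against 11167 in the other 851. They had 2525 CPM of the fibroblast proteoglycan gene *Dcn* against 395 CPM, 817 CPM of *Inmt*, a methyltransferase gene of alveolar fibroblasts, against 53.1 CPM, and 3724 CPM of *Col1a1* against 1338 CPM. *Notch3* (118 against 575 CPM), *Trpc6* (43.2 against 356 CPM) and *Myh11* (456 against 1601 CPM) were lower in them. These cells with high UMI counts were left in the gate, and the part of doublets in them beyond the caller's marks was not tested.

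Cells just inside and just outside the rule differed by degree. The 55 gated cells with 1 *Clstn2* UMI had 356 CPM of *Higd1b* and 831 CPM of *Cox4i2* on average, and the 34 cells with 2 *Clstn2* UMIs, which the rule left out, had 594 and 1445 CPM. The step was larger for *Acta2* (6484 against 2351 CPM) than for *Trpc6* (567 against 614 CPM). Outside the rule, 2445 cells held only 1 of the 3 markers, with 47.1 CPM of *Cox4i2*, 13.5 CPM of *Trpc6* and 5871 CPM of *Acta2*, and 142 cells lacked only *Pdgfrb*, with 4.72 CPM of *Trpc6* and 10535 CPM of *Acta2*.

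The share of gated cells among all cells was compared between genotypes. In the mural cell-enriched pool it was 4.25% and 3.94% in the WT mice (exact binomial 95% intervals 3.65% to 4.93% and 3.32% to 4.64%) and 6.58% and 6.07% in the *Tubb3*-/- mice (5.90% to 7.32% and 5.38% to 6.81%). The genotypes did not overlap, and the difference of the means was 2.23 percentage points. The two-sided exact permutation p was 0.33, the smallest that 2 against 2 mice allow. Depth also moved with genotype. When the rule was applied to cells thinned to 5000 UMIs, the means were 2.38% ± 0.277 in WT and 3.62% ± 0.0982 in *Tubb3*-/- mice (n = 2 each), a difference of 1.23 points. Before thinning the means were 4.10% and 6.33%, so thinning lowered the share in both genotypes. The part of depth in the genotype difference was not tested. The difference was 0.272 points for cells with all 3 markers and 0.452 points for those with *Higd1b*. In the whole-cell pool the shares were 0.617% and 0.353% in WT and 0.694% and 0.579% in *Tubb3*-/- mice, which overlapped (exact permutation p = 0.667). The intervals cover counting error only, and the sort sets the share in the enriched pool.

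*Tubb3*, which encodes neuron-associated β-III tubulin, was measured first as a check of the genotype labels. In gated cells it was 21.5 and 17.3 normalized CPM (scaled by the TMM method) in WT and 1.89 and 3.03 in *Tubb3*-/- mice, from 53, 30, 10 and 13 UMIs. It fell in the knockout by 2.996 ± 0.345 (SE) on the log2 scale, with an adjusted p of 0.0398 by edgeR's quasi-likelihood test. After thinning, 10.6% and 6.72% of WT gated cells and 1.18% and 1.07% of *Tubb3*-/- gated cells held a *Tubb3* UMI (15.3%, 10.1%, 2.31% and 3.11% before). The thinned share was 0.0720% to 0.747% per mouse in the immune gate, where the median UMIs per cell were 7710 to 10036. The share of the other libraries' free RNA in the remaining knockout UMIs was not tested. *Cre* had 1 UMI, in 1 gated cell of a *Tubb3*-/- mouse. *Tubb3* (chr8:123411424-123422015, plus strand, mm10) overlaps a longer readthrough gene, and UMIs shared by both could be lost or split.

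Between genotypes, 17 of 11769 genes tested were called at an adjusted p under 0.05 (0.144%), all lower in *Tubb3*-/- mice. None was called higher by edgeR in this fit (0.00%), where 1085 genes had an unadjusted p under 0.05. DESeq2 called 45 genes (0.382%), 43 of them lower, and 2 higher (0.0170%), *Spp1* and *Fbxl22*. It shared 15 of its calls with edgeR, which is 15 of 17 and 15 of 45, and gave no adjusted p for *Tubb3* and *Dnah12*. Of the 17 genes, 17 were also lower in the smooth muscle gate of the same mice, where 1.00% of genes were called, and 4 were called there (*Tubb3*, *Nup210l*, *Usp37* and *Akap12*). In Clstn2-high cells, 11 of the 14 that could be tested were lower and 0 were called by edgeR, where 0.0119% of genes were called in all. The number called in gated cells was 379 and 331 without WT replicates 1 and 2, and 52 and 38 without *Tubb3*-/- replicates 1 and 2, each with a lone sample assumed to vary like the other genotype. It was 1 in the mural cell-enriched libraries alone. In narrower gates 16 of the 17 could be tested, of which edgeR still called 5 in cells with all 3 markers, 7 when the rule was applied after thinning and 4 in cells with *Higd1b* at 1 or more UMIs.

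**Figure D3:**
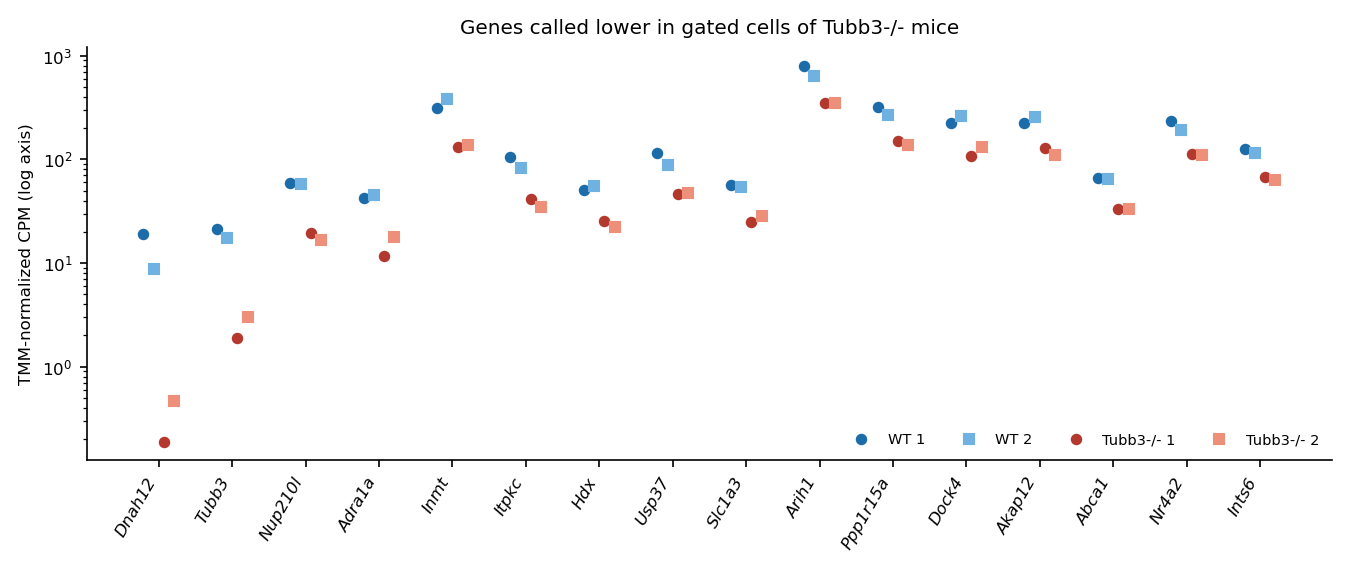
TMM-normalized CPM on a log axis of 16 of the 17 genes called between genotypes in gated cells, 1 point per mouse, ordered by log2 fold change. Both *Tubb3*-/- mice lie below both WT mice for each gene shown, from *Dnah12* with 19.0 and 8.66 against 0.189 and 0.467 to *Ints6* with 124 and 116 against 68.2 and 63.0.

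Several of the called genes encode signaling proteins. *Adra1a*, the alpha-1A adrenergic receptor that mediates contraction to noradrenaline, was 42.1 and 45.0 normalized CPM in WT and 11.7 and 17.7 in *Tubb3*-/- mice (log2 fold change -1.57 ± 0.22, adjusted p = 0.0420, edgeR). It did not overlap between the genotypes, and it was not called in the smooth muscle gate (-1.28, adjusted p = 0.245, edgeR). Nor was it called for a difference between these gates (interaction -0.32 ± 0.28, adjusted p = 0.830, edgeR). In narrower gates it was not called either, with a log2 fold change of -0.038 in cells with all 3 markers (adjusted p = 0.996, edgeR), -0.65 with *Higd1b* at 1 or more UMIs and -0.76 after thinning. *Itpkc*, an inositol trisphosphate kinase, was 106 and 82.5 against 41.1 and 34.5 (-1.32 ± 0.16), but it was not called with all 3 markers (-0.17), with *Higd1b* at 1 or more UMIs (-0.31) or after thinning (-0.95). *Akap12*, a scaffold of protein kinase A, was 224 and 253 against 129 and 109 (-0.996 ± 0.136). *Nup210l*, a nucleoporin relative, was 59.6 and 57.7 against 19.5 and 16.8 (-1.69 ± 0.16, adjusted p = 0.0215, edgeR), the lowest adjusted p of the 17. *Dnah12*, an axonemal dynein gene, had 47 and 15 UMIs in WT and 1 and 2 in *Tubb3*-/- mice, a ratio of 46.9 with a counting interval of 15.3 to 234 (95%). Its fall was 1.12 on the log2 scale in the smooth muscle gate and was not called there.

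Several other called genes are abundant regulators. *Arih1*, a ubiquitin ligase, was 798 and 636 normalized CPM in WT and 352 and 348 in *Tubb3*-/- mice (-1.04 ± 0.14, adjusted p = 0.0420, edgeR). *Ppp1r15a*, a stress-induced phosphatase subunit, was 316 and 270 against 150 and 137 (-1.03 ± 0.13). *Nr4a2*, an immediate early nuclear receptor, was 233 and 191 against 112 and 110 (-0.94 ± 0.13, adjusted p = 0.0422, edgeR). All 3 were at about 2-fold lower levels in both knockout mice. The other called genes were *Usp37*, a deubiquitinase, *Slc1a3*, a glutamate transporter, *Dock4*, a Rac activator, *Abca1*, a cholesterol exporter, *Ints6*, an Integrator subunit, and *Hdx*, with log2 fold changes between -1.14 and -0.88.

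*Inmt* was called too, at 310 and 383 normalized CPM in WT and 130 and 137 in *Tubb3*-/- mice (-1.37 ± 0.14, adjusted p = 0.0258, edgeR). Its direction did not hold in narrower gates: the log2 fold change was 0.42 in cells with all 3 markers, 0.16 when the rule was applied after thinning and 0.057 in cells with *Higd1b* at 1 or more UMIs. It was concentrated in the cells with 2 or more *Pdgfra* UMIs, of which the WT mice had 26 and 15 and the *Tubb3*-/- mice 41 and 40. In the mural cell-enriched libraries alone, *Inmt* was the 1 gene called (adjusted p = 0.0379, edgeR), and over its alternatives the adjusted p ran from 6.21e-17 to 1.00.

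The study reported its activated pericyte markers *Rgs5* and *Col18a1* as higher in *Tubb3*-/- pericytes, with *Cxcl10* tending lower. Those were average levels in pericytes picked by markers and clustering, a set of cells unlike this gate. By in situ hybridization, the study also found significantly less *Cxcl10* RNA in *Tubb3*-/- pericytes of fibrotic regions. The signs in gated cells were the same, but none of these genes was called by edgeR in the main fit. *Rgs5* was 128 and 34.1 normalized CPM in WT and 128 and 108 in *Tubb3*-/- mice (0.49 ± 0.67, adjusted p = 0.867, edgeR). The low value belonged to WT replicate 2, and without WT replicate 1 the log2 fold change became 1.80 with an adjusted p of 3.55e-11 (edgeR), against 0.0810 to 1.00 under the other alternatives. Without WT replicate 2 it was -0.11 (adjusted p = 0.915, edgeR). *Col18a1*, the collagen that releases endostatin, was 470 and 398 in WT and 701 and 570 in *Tubb3*-/- mice. Both knockout mice were higher (0.55 ± 0.14), with an adjusted p of 0.297 by edgeR, which became 0.00648 without WT replicate 1 and 0.00401 with no filter on low counts. *Cxcl10*, an interferon-induced chemokine, was 107 and 101 against 76.3 and 85.2 (-0.37 ± 0.12, adjusted p = 0.415, edgeR). Its log2 fold change in the smooth muscle gate was -0.33. Clstn2-high cells went the other way, at 6.67 and 18.0 in WT and 29.8 and 61.4 in *Tubb3*-/- mice, which was not called (adjusted p = 0.432, edgeR). These values rest on only 38 and 110 cells in WT and 61 and 72 cells in *Tubb3*-/- mice. The interaction with Clstn2-high cells was not called either (adjusted p = 0.458, edgeR). *Cxcl10* overlaps *Art3* and *Col18a1* overlaps *Slc19a1* on the other strand, and the sources used here do not give the strand setting of the counts.

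Immediate early genes, the transcription factors and feedback regulators that cells induce rapidly after many stimuli, were lower together. In 21 of 25, both *Tubb3*-/- mice lay below both WT mice, where 21.1% of all genes tested did. Of the 25, 19 had an unadjusted p under 0.05, against 1085 of the 11769 genes tested. The median log2 fold change was -0.46, against -0.0043 over all genes. Only *Nr4a2* was called by edgeR, and DESeq2 also called *Fosb*, *Junb*, *Egr1*, *Nr4a1* and *Btg2*. The summed level was 24773 and 25024 CPM in WT and 18494 and 18323 CPM in *Tubb3*-/- gated cells. The same order held in the smooth muscle gate (26021 and 23736 against 19062 and 18916 CPM) and in the fibroblast gate (24160 and 22578 against 16789 and 16560 CPM). It also held in the Clstn2-high and epithelial gates, the endothelial gate (18389 and 20264 against 17385 and 15747 CPM) and the immune gate (11673 and 11736 against 11177 and 10671 CPM). The lower level was thus not particular to the gated cells. The relation of the lower level to depth, which moved with genotype in all of these gates, was not tested.

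Inflammatory mediators were mixed, with 8 of 23 genes lower and 3 higher in both *Tubb3*-/- mice, a median log2 fold change of -0.68 and 0 called by edgeR (9 at an unadjusted p under 0.05). These are 34.8% lower and 13.0% higher, where 21.1% of all genes tested were lower and 20.2% higher in both knockout mice. Over all 11769 genes tested, 1085 had an unadjusted p under 0.05. *Cxcl1*, a neutrophil chemokine, was 913 and 596 normalized CPM in WT and 319 and 290 in *Tubb3*-/- mice (-1.31 ± 0.20, adjusted p = 0.0901, edgeR), and *Nfkbia*, the NF-κB inhibitor, was 1116 and 713 against 582 and 433 (-0.85 ± 0.25). WT replicate 1 was the highest sample for both. DESeq2 called *Cxcl1*, *Nfkbia*, *Icam1* and *Ptgs2* lower. The summed level was 4934 CPM in WT replicate 1 and 2311 to 2850 CPM in the other mice, and WT replicate 1 was also highest in the smooth muscle and fibroblast gates. Of 28 interferon response genes, 11 were lower (39.3%) and 2 higher (7.14%) in both knockout mice, beside the same shares of all genes, with 0 called by edgeR (5 at an unadjusted p under 0.05) and *Irf1* called lower by DESeq2. The most abundant members, *B2m* and *H2-D1*, had log2 fold changes of 0.02 and 0.0042.

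Of 26 genes of the fibrillar matrix tested, 18 were higher in both *Tubb3*-/- mice, where 20.2% of all genes were, with a median log2 fold change of 0.28. Of the 26, 8 had an unadjusted p under 0.05, where 1085 of all 11769 genes did, and 0 were called by edgeR. *Col3a1* was 3443 and 2749 normalized CPM in WT and 3508 and 4031 in *Tubb3*-/- mice (0.28 ± 0.14, adjusted p = 0.578, edgeR), and *Eln*, elastin, overlapped between genotypes (4312 and 2857 against 4155 and 4982). The summed level of the list was 21594 and 19305 CPM in WT and 24778 and 26138 CPM in *Tubb3*-/- gated cells. The same order held in the smooth muscle, Clstn2-high and fibroblast gates. It also held in the immune gate (7059 and 5568 against 12986 and 11569 CPM) and the epithelial gate (5530 and 6335 against 12595 and 11022 CPM). Sums in the endothelial gate overlapped (6473 and 4445 against 6034 and 5246 CPM). *Spp1*, osteopontin, was 124 and 251 normalized CPM in WT and 1119 and 711 in *Tubb3*-/- mice (2.30 ± 0.45). It was not called by edgeR (adjusted p = 0.312), but was called by DESeq2 (adjusted p = 0.0209), and after thinning 5 cells held 60.1% of its UMIs. In the smooth muscle gate *Spp1* was 440 and 105 against 1677 and 1270. In Clstn2-high cells it was 1127 and 1943 against 867 and 1070 (interaction adjusted p = 0.0642, edgeR). Among 21 basement membrane genes, 10 were higher (47.6%) and 1 lower (4.76%) in both knockout mice, where 20.2% and 21.1% of all genes were. By edgeR 0 were called (5 at an unadjusted p under 0.05). *Sparc* (0.21 ± 0.12) and *Col4a1* (0.28 ± 0.11) were the most abundant. The summed level of this list was higher in both knockout mice in the gated cells and in each of the other gates, the immune gate (2178 and 1661 against 3187 and 2852 CPM) among them.

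Neither the pericyte identity nor the contractile genes moved as a group. Of 25 pericyte identity genes, 5 were higher (20.0%) and 6 lower (24.0%) in both *Tubb3*-/- mice, where 20.2% and 21.1% of all genes were, with a median log2 fold change of -0.04. *Postn* was 877 and 1031 normalized CPM in WT and 1241 and 1071 in *Tubb3*-/- mice (0.28 ± 0.13, adjusted p = 0.571, edgeR), and *Ebf1*, a transcription factor, was 726 and 768 against 664 and 656 (-0.18 ± 0.11). Of 17 contractile genes, 3 were higher (17.6%) and 1 lower (5.88%), with a median of 0.15. *Higd1b*, *Cox4i2* and *Pdgfrb* overlapped between genotypes, and *Ndufa4l2* differed by -0.05 ± 0.11. For none of these lists was a gene called by edgeR, although 4 pericyte identity genes and 1 contractile gene had an unadjusted p under 0.05. Of all 11769 genes tested, 1085 did. Of 29 channel and cyclic GMP genes, 11 were lower (37.9%) and 2 higher (6.90%), with *Adra1a* called. Cell cycle genes (23 tested, 0 called by edgeR, 1 with an unadjusted p under 0.05) had a median of 0.72, and *Tubb3*-/- replicate 1 had the highest sum, at 580 CPM against 197 to 384 CPM in the other mice.

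**Figure D4:**
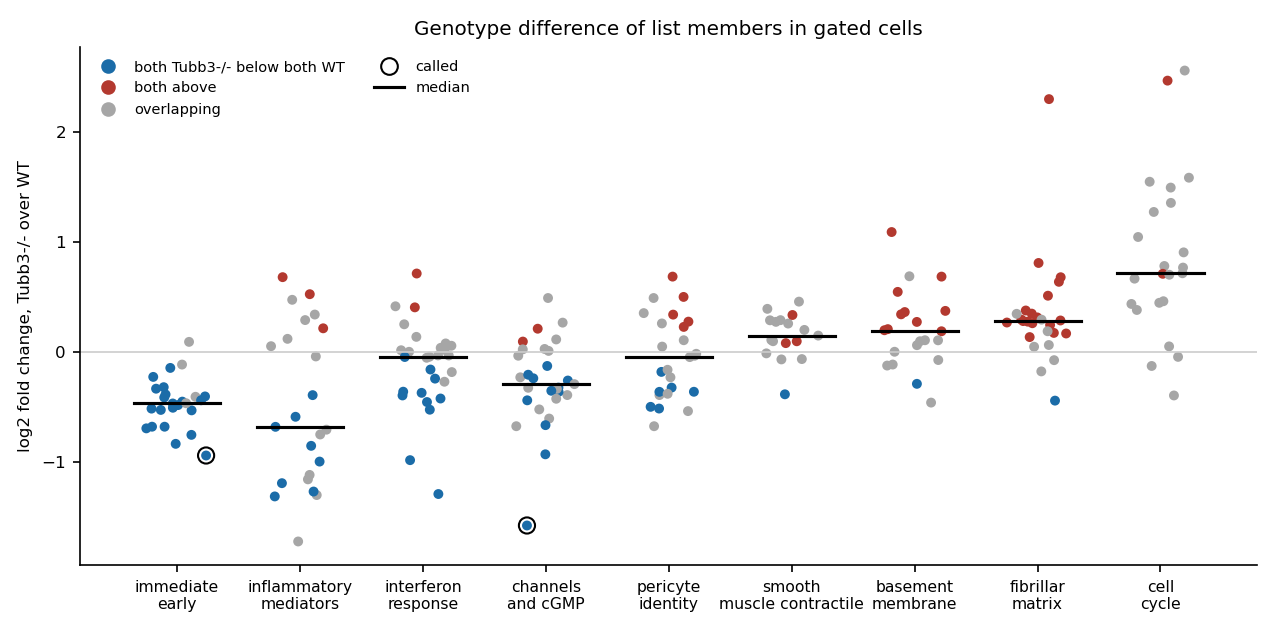
Log2 fold change of *Tubb3*-/- over WT gated cells for the members of 9 gene lists, 1 point per gene, with the median as a line. Blue and red mark genes for which both knockout mice lie below or above both WT mice, and circled genes (*Nr4a2* and *Adra1a*) were called by edgeR.

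Among the remaining lists, 10 of 33 vessel signaling genes were lower (30.3%) and 4 higher (12.1%) in both *Tubb3*-/- mice, where 21.1% and 20.2% of all genes were, with 0 called and 7 at an unadjusted p under 0.05 (edgeR). *Angpt1*, the Tie2 ligand that stabilizes vessels, was 406 and 583 normalized CPM in WT and 298 and 377 in *Tubb3*-/- mice (-0.55 ± 0.19, adjusted p = 0.459, edgeR). It was below both WT mice in both knockout mice but not beyond the threshold. Of 10 Notch genes, 4 were lower (40%) and 0 higher, while *Notch3* itself differed by -0.04 ± 0.11. Of 25 hypoxia and mitochondrial isoform genes, 5 were higher (20.0%) and 6 lower (24.0%). Of 13 tubulins, *Tubb3* was the 1 called. Among markers of other cell types, 8 of 18 fibroblast genes were lower (44.4%) and 5 higher (27.8%), with *Inmt* called. Of the 18, 10 had an unadjusted p under 0.05, against 1085 of the 11769 genes tested. Of 9 endothelial, 6 immune and 9 epithelial genes tested 0 were called by edgeR. *Scgb1a1*, a club cell secretory protein, was 1281 normalized CPM in *Tubb3*-/- replicate 2 and 106 to 131 in the other mice, and 5 cells held 52.9% of its thinned UMIs.

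Whether the genotype difference itself differed between gates was tested as an interaction. Against Clstn2-high cells, 1 of 10672 genes was called (0.00937%), *Pcdh9*, a protocadherin. Without WT replicate 2 none was called by edgeR, and without *Tubb3*-/- replicates 1 and 2 the numbers were 60 and 227. Against the smooth muscle gate, 1 of 14456 genes was called (0.00692%), *Kcnb2*, a voltage-gated potassium channel gene. It was 87.5 and 129 normalized CPM in WT and 64.6 and 56.2 in *Tubb3*-/- gated cells, and 56.0 and 68.1 against 80.0 and 77.0 in the smooth muscle gate (interaction -1.12 ± 0.13, adjusted p = 0.0477, edgeR). The gated cells were lower and the smooth muscle gate higher in both knockout mice, and with the size factors of DESeq2 in edgeR 0 genes were called. Leaving out 1 mouse gave 68 and 43 (WT replicates 1 and 2) or 12 and 50 genes (*Tubb3*-/- replicates 1 and 2). An unadjusted p under 0.05 was found for 500 genes against Clstn2-high cells and 1172 against the smooth muscle gate.

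The same mice gave gated cells in both kinds of library, and these were compared with the mouse as a covariate. Of 8916 genes, 64 were called (0.718%), 35 higher in mural cell-enriched (0.393%) and 29 higher in whole-cell libraries (0.325%). Without *Tubb3*-/- replicates 1 and 2 the number was 35 and 38. Each pool was 1 capture, so the sort and the capture cannot be told apart. All 7 immune markers tested were higher in the whole-cell libraries, although no gated cell held a *Ptprc* UMI. *Lyz2*, macrophage lysozyme, was 319, 382, 335 and 352 normalized CPM in the whole-cell and 91.4, 63.9, 54.2 and 83.5 in the mural cell-enriched sums of WT replicates 1 and 2 and *Tubb3*-/- replicates 1 and 2 (log2 fold change -2.26 ± 0.17 for mural cell-enriched over whole-cell, adjusted p = 4.78e-06, edgeR). *S100a9*, a neutrophil gene, had 23 UMIs in the whole-cell and 0 in the mural cell-enriched sums, at least 96.5-fold higher against a floor of 3 counts over the group. *Chil3*, *Ccl6* and *Igkc*, of macrophages and plasma cells, were higher in the whole-cell libraries as well. For each of these genes, the 4 whole-cell libraries lay above the 4 mural cell-enriched ones. The part of free RNA from the other cells of each pool was not tested.

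Of 17 fibroblast genes tested, 3 were called higher in the mural cell-enriched libraries (*Col1a1*, *Lum* and *Cthrc1*) and 0 lower, with a median log2 difference of 0.74. Of 26 fibrillar matrix genes, 4 were called higher (*Col1a1*, *Cthrc1*, *Lox* and *Ccn2*) and 0 lower, with a median of 0.39. *Col1a1* was 732, 954, 944 and 1748 normalized CPM in the whole-cell and 1928, 1449, 2323 and 2469 in the mural cell-enriched sums (0.95 ± 0.16, adjusted p = 0.0250, edgeR). *Lum* (3.41 ± 0.33), *Cthrc1* (3.37 ± 0.36) and *Hhip*, a hedgehog antagonist (3.75 ± 0.43), were also called. *Thbs4*, a thrombospondin, had 0 UMIs in the whole-cell and 429 in the mural cell-enriched sums (at least 11.4-fold higher), and *Kctd16* had 0 and 281 (at least 7.44-fold). *Sfrp2* had 1 and 533 UMIs, a ratio of 42.3 with a counting interval of 7.57 to 1675. Of the pericyte identity genes, *Vtn* was the 1 called of 24, at 71.0, 83.0, 219 and 122 in the whole-cell and 32.3, 44.9, 41.1 and 46.1 in the mural cell-enriched sums (-1.62 ± 0.25, adjusted p = 0.00430, edgeR), and was higher in the whole-cell library of each mouse. *Rgs5* was 79.9 and 24.9 in the WT and 573 and 380 in the *Tubb3*-/- whole-cell sums, but 136, 35.4, 96.1 and 91.8 in the mural cell-enriched ones, which was not called (adjusted p = 0.836, edgeR). The contractile list did not differ as a group (median 0.17, *Hhip* the 1 gene called of 17). The whole-cell sums rest on 11 to 29 cells a mouse.

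**Figure D5:**
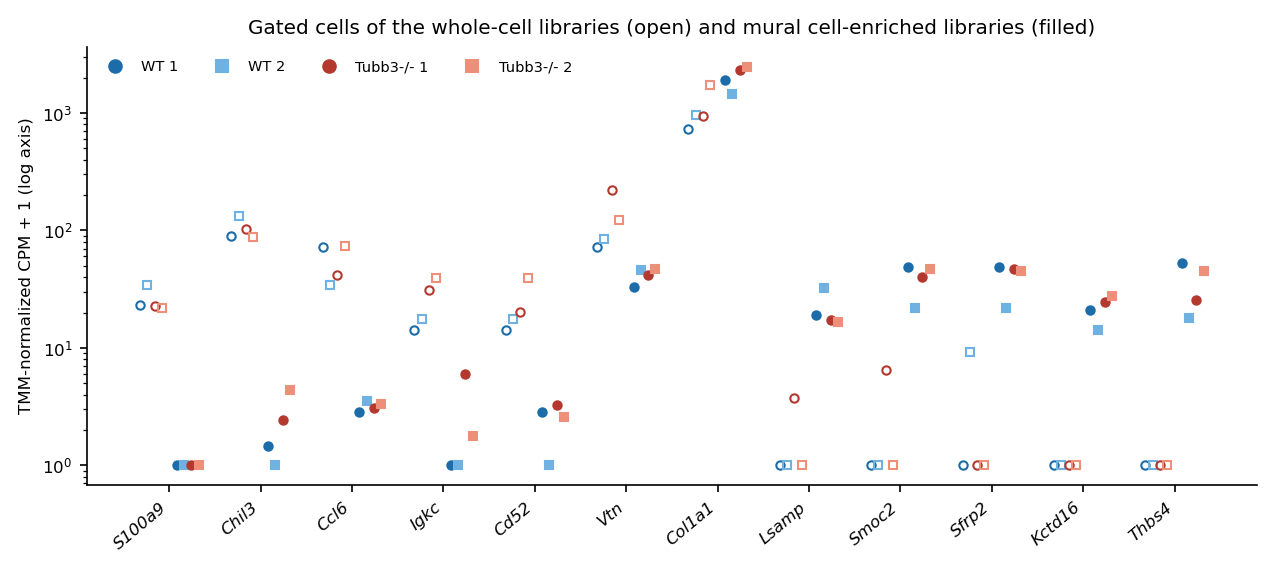
TMM-normalized CPM plus 1 on a log axis of 12 genes in gated cells, 1 point per library, with open points for whole-cell and filled points for mural cell-enriched libraries. *S100a9* has 0 UMIs in the 4 mural cell-enriched libraries, and *Kctd16* and *Thbs4* have 0 UMIs in the 4 whole-cell libraries.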

How the data were processed

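Gene counts were the deposited UMI counts per cell, which the authors made with Cell Ranger 7.1.0 and the mm10 genome, per the submitters' processing notes. The strand and intron settings were not given in the sources used here. Cells with 200 to 7500 genes and at most 15% mitochondrial UMIs were kept, and mice were told apart by their tags. UMIs of the gated cells were summed per mouse (genotype) or per mouse and pool (library kind). They were tested with edgeR 4.0.16 (filterByExpr, TMM, robust quasi-likelihood, Benjamini-Hochberg threshold 0.05) in R 4.3.3, with DESeq2 1.42.0 as an alternative. The code was tested on simulated data. Doublets were scored with Scrublet in scanpy 1.11.5 and kept in the main gate. The gate and the gene lists were chosen with earlier results of these data known. The genes named were the rule genes, *Tubb3*, *Cre*, *Rgs5*, *Col18a1* and *Cxcl10*, the called members of each list or its 2 most abundant members, the called genes, and the genes leading each gate comparison. Other list members and genes shown within the gate or by DESeq2 were named after their values were seen. P-values cover the spread between these 4 mice only. *Mx1*, *Mx2*, *Cxcl11* and *Ctgf* had no row by these names. The values of 1 called gene are not reported here.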

Additional observations from a re-analysis of the deposited data

Results flagged for a closer look

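The genotype difference of *Pcdh9* differed between the gated and the Clstn2-high cells by an interaction test (adjusted p = 0.0475, edgeR). Gated cells had 95.6 and 99.3 normalized CPM in WT and 78.0 and 72.6 in *Tubb3*-/- mice. Clstn2-high cells had 0 and 0 UMIs of 314828 and 896744 in WT, which allows up to 2.48 CPM over both mice (3 counts), and 20 and 25 UMIs in *Tubb3*-/- mice. The difference thus rests on a gene at 0 in the WT Clstn2-high cells, and neither gate's own genotype test called it (adjusted p = 0.395 and 0.117, edgeR).

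The genotype difference of *Kcnb2* differed between the gated cells and the smooth muscle gate (adjusted p = 0.0477, edgeR). It was lower in both *Tubb3*-/- mice in gated cells and higher in both in the smooth muscle gate, and neither gate's own test called it (adjusted p = 0.235 and 0.160, edgeR).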

How the results depend on the processing

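The genotype comparison (17 genes) gave 45 genes with DESeq2, 296 with no filter on low counts, 38 to 379 with 1 mouse left out, 1 in mural cell-enriched and 0 in whole-cell libraries alone, 28 with *Clstn2* at 0, 28 with the rule applied after thinning and 0 with *Pdgfra* and *Myh11* at 0. With *Clstn2* not limited, an alternative chosen after seeing the data, as was *Higd1b* at 1 or more, it gave 0. Adding the replicate number as a block gave 40, 38 lower and 2 higher, and called 16 of the 17 (*Slc1a3* not, adjusted p = 0.0502, edgeR). Replicate 1 of both genotypes had more Y-linked UMIs (542 and 1003, against 25 and 41) and replicate 2 more *Xist* UMIs, so number and sex cannot be told apart. The replicate numbers mark no shared animal, and the differences between replicates 1 and 2 correlated at 0.32 between genotypes over 3582 genes. The library comparison (64 genes) gave 231 with no filter and 35 to 75 with 1 mouse left out. The interaction with Clstn2-high cells (1 gene) gave 4 with DESeq2, 112 with no filter, 0 to 227 with 1 mouse left out and 2 without doublets. That with the smooth muscle gate (1 gene) gave 22 with DESeq2, 0 with DESeq2's size factors in edgeR, 370 with no filter, 12 to 68 with 1 mouse left out and 14 without doublets. *Inmt* reversed to 0.42 in cells with all 3 markers, 0.16 after thinning and 0.057 with *Higd1b* at 1 or more, and *Dock4* to 0.35 in whole-cell libraries alone. The cause was not tested. Of the other values for single genes, 261 stayed on their side of the threshold, 85 lost the call and 3 gained it. Of those 261, 2 changed sign without a call: *Rgs5* to -0.11 without WT replicate 2 and *Col18a1* to -0.29 with *Pdgfra* and *Myh11* at 0. Whole-cell sums hold few cells, which limits their precision.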

Other observations

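Some genes were concentrated in few gated cells. Among 6631 genes in 935 cells thinned to 5000 UMIs, *Scgb1a1* and *Spp1* varied most beyond their level, with up to 605 and 304 UMIs in 1 cell. *Saa3*, an acute phase gene, was found in 5.67% of cells, and 5 cells held 68.8% of its UMIs. *Cxcl10* was found in 12.9% of cells and *Rgs5* in 15.5%, with 38.3% and 33.6% of their UMIs in 5 cells. *Ifit1*, an interferon-induced gene, had 54.8% of its UMIs in 5 cells, and *Ccl2*, a monocyte chemokine, 45.5%.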
